A study of Mus musculus with 14 samples.

Results

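The 9 genes described here are Cish, Socs2, Socs1, Socs3, Stat5a, Stat5b, Stat3, Ghr and Prlr, the core of STAT5 signalling and its SOCS feedback, out of 55228 genes counted. They were taken by symbol. The set was chosen by the urethral counts of Cish and Socs2 in these libraries, which were higher at E18.5 than at E14.5, so the urethral stage difference is given for all 9 as a description, with no test. All 9 passed the filter on low counts.

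RNA-seq counts came from 14 libraries of epithelium of wildtype, untreated female CD-1 mouse embryos. The groups were urethra at E18.5 (3 libraries), urethra at E14.5 (4), bladder at E18.5 (3) and bladder at E14.5 (4), with E0.5 set at noon of the plug day. The females of 1 litter were pooled for a library, and the extraction notes give 3 litters per kind of sample although the E14.5 groups hold 4 libraries each. The epithelium was loosened with trypsin on ice and pulled off the mesenchyme with forceps. The series asked which epithelial factors set the developing bladder and urethra apart.

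Growth hormone, prolactin and many cytokines bind receptors that have no kinase of their own and rely on bound Janus kinases. The kinases phosphorylate STAT proteins, which pair, enter the nucleus and bind DNA at a palindrome with the letters TTCNNNGAA. Cish and the Socs genes are classical transcripts induced in this way, and their proteins bind the receptor or the kinase and dampen the signal. RNA levels report neither phosphorylation of STAT proteins nor hormone exposure.

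The palindrome was looked for in the promoters, 250 bases before to 50 after each start, because it is the letters that STAT5 reads in this family. RefSeq promoters (GRCm38.p6) were at hand for 8 of the 9 genes, in 13 entries, and 3 genes held a match. Socs2 was not in that table. The motif equals its own reverse complement, so 1 search covers both strands. The stretches with a match read 5′ to 3′ on the gene's strand as follows, with the motif in capitals.
Cish, chr9:107296654-107296683, plus strand: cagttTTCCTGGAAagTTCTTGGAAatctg
Socs3, chr11:117969501-117969530, minus strand: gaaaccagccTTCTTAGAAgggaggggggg
Prlr, chr15:10223786-10223815, plus strand: gcaaaatgagTTCTAGGAAtaagggatatc
The Cish stretch held 2 motifs, beginning at +1 and +12, where +1 is the first base of the RefSeq transcript. Both thus lay at or after that start, not before it. The Cish window (107296409 to 107296708) lies inside the gene span of the deposited counts, which begins at 107296026. The matched windows of Socs3 (117969317 to 117969616) and Prlr (10223656 to 10223955) also lie inside their gene spans. Those spans run from 117966079 to 117970047 and from 10177238 to 10349180. The single motif of Socs3 began at -154, and that of Prlr at -110 from 1 of its 3 annotated starts. Of 32851 promoter entries in the table, for 27025 genes, 2726 (8.30%) held the motif. A pair of motifs within 30 bases, as in Cish, was held by 16 (0.0487%). These shares are of entries, whereas the 3 matches above were counted by gene. A match describes letters only and does not show binding.

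Library totals ran from 21.1 to 36.8 M counts, and 1 count in the shallowest library stood for 0.0492 CPM (counts scaled to library size). Epithelial and mesenchymal RNA were present in every group. The summed level of 7 epithelial markers was 3575 to 4173 CPM in urethra at E18.5, 1657 to 3662 in urethra at E14.5, 2653 to 3415 in bladder at E18.5 and 4017 to 4642 in bladder at E14.5. The summed level of 15 mesenchymal markers was 4456 to 5316, 2102 to 6037, 19394 to 29438 and 1084 to 4360 CPM in the same order of groups. The E18.5 bladder libraries therefore stood apart from all others on this list. They did so as well on 10 smooth muscle markers (1227 to 2674, 584 to 781, 5676 to 14802 and 295 to 727 CPM), 10 endothelial markers (66.9 to 111, 30.8 to 238, 316 to 471 and 32.9 to 139 CPM), 12 immune markers (79.8 to 95.9, 38.4 to 87.2, 212 to 301 and 12.7 to 65.9 CPM) and the 9 erythroid markers found in the tables (239 to 517, 248 to 737, 880 to 1295 and 164 to 645 CPM), of which Epb42 was at 0 in urethra at E18.5. Among 8 neural markers the groups overlapped (20.6 to 176, 36.6 to 132, 25.8 to 108 and 7.77 to 76.6 CPM). The tissues also differed at E14.5, where their epithelial sums did not overlap. Of 7 epithelial markers 5 were lower in urethra at E14.5 and 0 higher. Of 15 mesenchymal markers 6 were higher there and 1 lower. Of all genes 20.9% were higher and 23.1% lower in that comparison. The part of these marker differences in the tissue differences at E14.5 was not tested beyond the alternative fits given below. In bulk RNA, fewer cells of a type and less RNA per cell cannot be told apart. The stages were also deposited as separate tables, so stage and table cannot be told apart.

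**Figure D1:**
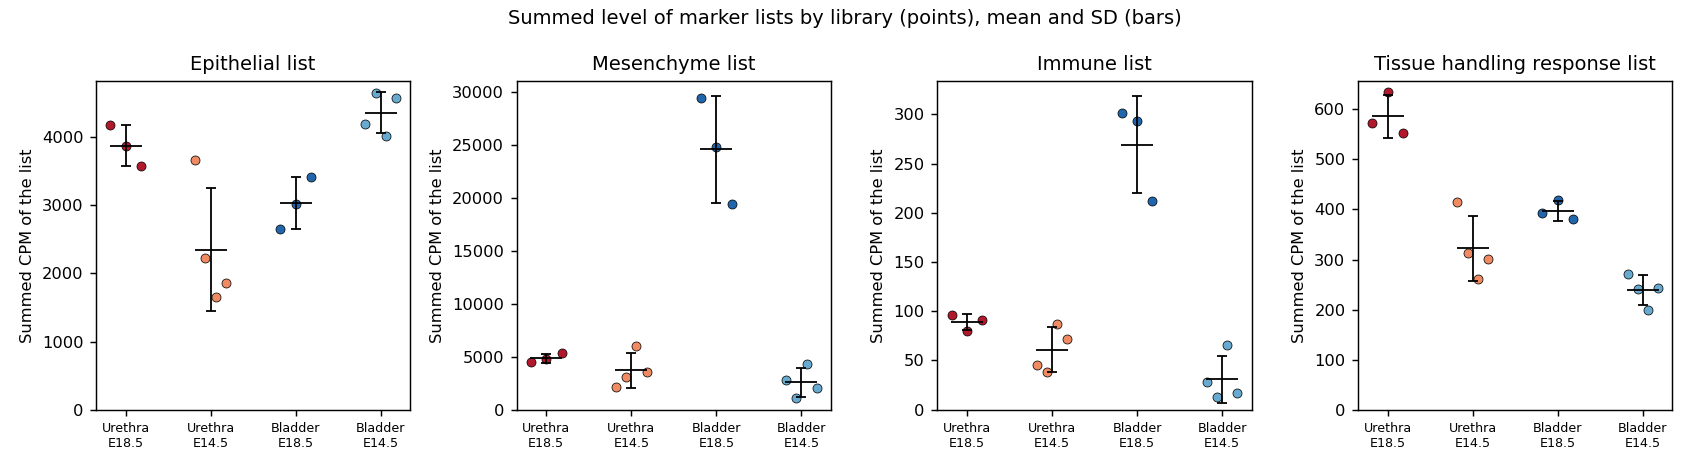
Summed CPM (y axis) of the epithelial, mesenchymal, immune and tissue handling lists in each library (points), with the group mean and SD as bars, for urethra and bladder at E18.5 and E14.5 (x axis). The 3 E18.5 bladder libraries carried 19394 to 29438 CPM of the mesenchymal list, against at most 6037 CPM in any other library.

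The feedback genes come first. Cish (chromosome 9, 107296026 to 107302784, plus strand, GRCm38) encodes an SH2 protein that competes for phosphorylated receptor sites and is among the most direct transcripts of STAT5. Its exons overlap the predicted genes Gm17040 and Gm17041 on the opposite strand, which had 0 to 15 and 0 to 4 counts per library. In urethra it stood at 50.1, 54.1 and 44.6 CPM at E18.5, against 16.2, 14.2, 9.72 and 10.8 CPM at E14.5. In bladder it stood at 37.6, 34.6 and 39.3 CPM at E18.5, against 17.97, 20.4, 17.999 and 20.3 CPM at E14.5. The 4 groups did not overlap, in the order urethra at E18.5, bladder at E18.5, bladder at E14.5 and urethra at E14.5. The urethra thus held the highest and the lowest group, with a 3.89-fold difference between its stages that chose the gene. Of all genes 33.0% passed between urethral stages, 17.3% as higher, and nothing is read from that here.

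In bladder, which the choice of genes did not use, Cish rose 1.94-fold at E18.5 relative to E14.5 (log2 fold change 0.95, SE 0.15, adjusted p = 3.69e-04, edgeR's quasi-likelihood test with Benjamini-Hochberg adjustment over all genes tested). Of 18286 genes tested in that comparison, 40.3% passed in either direction, 19.9% as higher and 20.4% as lower. All 3 later bladder libraries lay above all 4 earlier ones. Cish kept its call in that comparison in each of the alternatives run, including the fit with a mesenchymal score (the mean log2 CPM of the mesenchymal list) as a covariate.

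Socs2 (chromosome 10, 95385362 to 95417180, minus strand), whose protein is the main brake on growth hormone signalling in mice, followed the same order of groups. Its urethral level was 37.6, 36.3 and 35.9 CPM at E18.5, against 7.22, 9.39, 10.6 and 8.91 CPM at E14.5. Its bladder level was 28.9, 28.5 and 23.5 CPM at E18.5, against 16.4, 19.4, 15.6 and 20.2 CPM at E14.5. No neighbouring groups overlapped here either. The urethral stages differed 4.05-fold, which is again what chose the gene. In bladder Socs2 rose 1.51-fold (log2 fold change 0.59, SE 0.14, adjusted p = 0.00441), a call that was lost with the mesenchymal covariate.

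The tissues exchanged places between the stages for both genes. At E18.5 Cish averaged 49.6 ± 4.75 CPM in urethra and 37.1 ± 2.39 CPM in bladder (SD, n = 3 each), and Socs2 averaged 36.6 ± 0.863 CPM in urethra and 27.0 ± 3.01 CPM in bladder. At E14.5 Cish averaged 12.7 ± 3.00 CPM in urethra and 19.2 ± 1.37 CPM in bladder (n = 4 each), and Socs2 averaged 9.04 ± 1.42 CPM in urethra and 17.9 ± 2.24 CPM in bladder. The urethra over bladder difference at E14.5 was -0.56 for Cish and -0.95 for Socs2 on the log2 scale, and it turned to 0.36 and 0.086 when libraries were scaled on 7 pan-epithelial genes. That scaling moved the median of all genes to 1.02, so relative to it Cish stood at -0.66 and Socs2 at -0.93. At E18.5 the differences of 0.47 and 0.50 were 0.053 and 0.063 under that scaling, with the median of all genes at -0.39 and the values relative to it at 0.45 and 0.46. These tissue differences are given with no test, since the choice of genes used the urethral libraries. Taking off the median of all genes largely undoes the scaling. Values relative to that median, here and below, are therefore no separate check of direction.

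**Figure D2:**
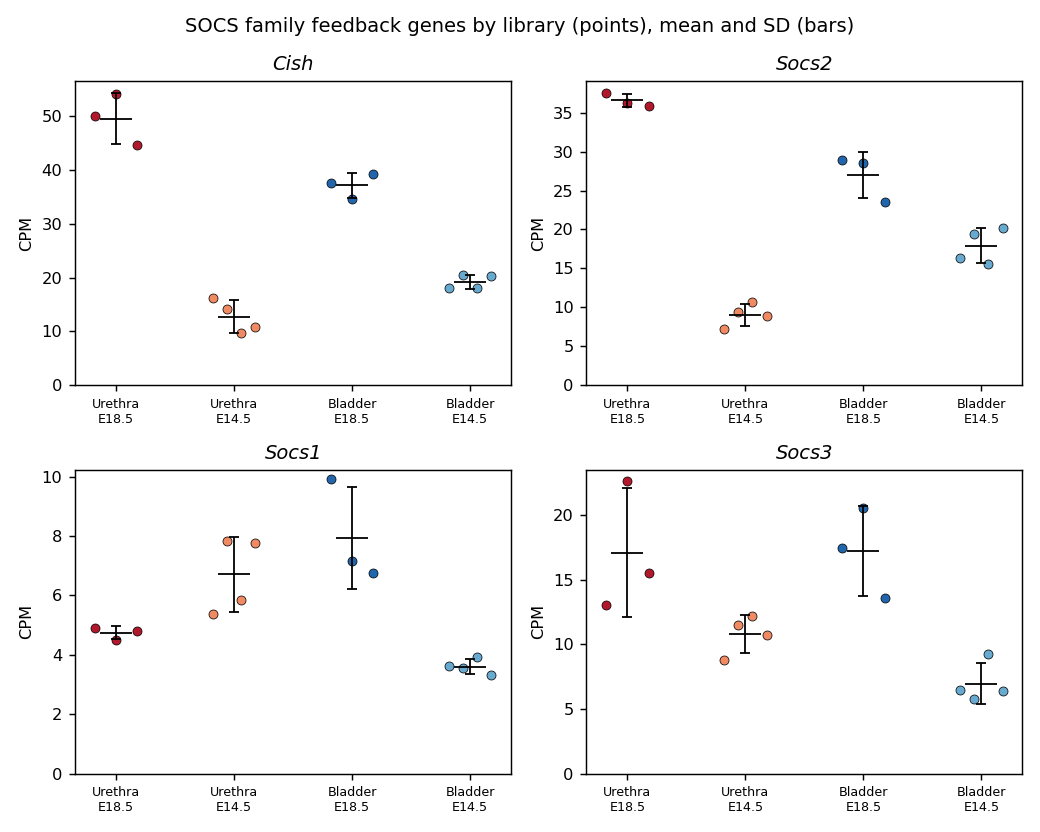
CPM (y axis, from 0) of Cish, Socs2, Socs1 and Socs3 in each library (points), with group mean and SD as bars, for urethra and bladder at E18.5 and E14.5 (x axis). Cish and Socs2 order the groups alike, with urethra at E18.5 highest (49.6 and 36.6 CPM on average) and urethra at E14.5 lowest (12.7 and 9.04 CPM), while Socs1 is highest in bladder at E18.5 (7.94 CPM) and lowest in bladder at E14.5 (3.61 CPM).

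Socs1 (chromosome 16, 10782240 to 10785536, minus strand), whose protein inhibits the kinase domain of Janus kinases and is best known for restraining interferon signals, had the lowest CPM of the 4 feedback genes. Urethral libraries held 4.91, 4.50 and 4.81 CPM at E18.5, against 5.37, 7.83, 5.86 and 7.76 CPM at E14.5. Bladder libraries held 9.90, 7.16 and 6.74 CPM at E18.5, against 3.63, 3.56, 3.91 and 3.33 CPM at E14.5. The stages did not overlap in either tissue, and they lay in opposite orders. Urethra at E14.5 and bladder at E18.5 overlapped with each other, at 5.37 to 7.83 and 6.74 to 9.90 CPM.

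Socs1 rose 2.199-fold in bladder at E18.5 relative to E14.5 (log2 fold change 1.14, SE 0.19, adjusted p = 5.34e-04), and the call was lost with the mesenchymal covariate. In urethra its stage difference was -0.50 on the log2 scale, given with no test. Between tissues at E14.5, Socs1 was 1.898-fold higher in urethra than in bladder (log2 fold change 0.92, SE 0.19, adjusted p = 0.00552), against a background of 44.0% of 16697 genes called there, 20.9% as higher and 23.1% as lower. With the mesenchymal covariate that call was lost (adjusted p = 0.0654). At E18.5 Socs1 was 1.61-fold lower in urethra (log2 fold change -0.68, SE 0.22, adjusted p = 0.0410), where 37.9% of 17513 genes were called, 18.6% as higher and 19.3% as lower. This call was lost without urethra replicate 1, 2 or 3 or bladder replicate 1 or 2 (adjusted p 0.0575 to 0.129). It was also lost with no filter on low counts (0.0692) and with the replicate number as a block. The value turned to 0.093 with the mesenchymal covariate, in a fit in which 2 genes of the whole table passed.

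Socs3 (chromosome 11, 117966079 to 117970047, minus strand), whose protein binds gp130 and restrains IL-6 family signals through STAT3, did not follow Cish. In urethra it stood at 13.03, 22.6 and 15.5 CPM at E18.5, against 8.80, 11.5, 12.2 and 10.7 CPM at E14.5. In bladder it stood at 17.5, 20.5 and 13.6 CPM at E18.5, against 6.46, 5.75, 9.25 and 6.42 CPM at E14.5. At E18.5 the tissues overlapped fully, at 17.1 ± 4.98 CPM in urethra and 17.2 ± 3.48 CPM in bladder (SD, n = 3 each, adjusted p = 0.890 by edgeR's quasi-likelihood test).

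In bladder Socs3 rose 2.47-fold (log2 fold change 1.31, SE 0.22, adjusted p = 5.66e-04), a call lost with the mesenchymal covariate. At E14.5 Socs3 was 1.59-fold higher in urethra than in bladder (log2 fold change 0.67, SE 0.20, adjusted p = 0.0256), although 1 bladder library at 9.25 CPM lay within the urethral range. That call was lost without urethra replicate 2 (adjusted p = 0.0684), 3 (0.0656) or 4 (0.0568), without bladder replicate 2 (0.0548) or 4 (0.0717), and with the mesenchymal covariate (0.289). The urethral stage difference of 0.66 on the log2 scale, given with no test, turned to -0.22 under pan-epithelial scaling, where the median of all genes was -0.84 and Socs3 stood 0.62 above it.

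In bladder, all 4 feedback genes therefore passed as higher at E18.5, where 19.9% of all genes did. The same libraries were those with 19394 to 29438 CPM of mesenchymal and 212 to 301 CPM of immune markers, against 1084 to 4360 and 12.7 to 65.9 CPM at E14.5. With the mesenchymal score as a covariate Cish alone of the 4 kept its call, in a fit in which 937 genes passed in place of 7365. The part of other cell types in these rises was not tested beyond that fit.

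The transcription factors follow. Stat5a and Stat5b lie side by side on chromosome 11 (100859351 to 100885169, plus strand, and 100780731 to 100850724, minus strand, GRCm38) and encode closely similar proteins, of which Stat5a is known for mammary development and Stat5b for growth hormone responses in mouse liver. How reads that fit both were counted is not given in the sources used here. The 3′ ends of Stat5a and Stat3 (chromosome 11, 100885098 to 100939540, minus strand) share 72 exon bases on opposite strands, and the strand setting of the counting is not given either.

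Stat5a had the largest tissue difference of the 3 factors at E18.5. Its urethral level was 73.7, 45.5 and 81.3 CPM at E18.5, against 29.9, 41.8, 23.3 and 33.3 CPM at E14.5. Its bladder level was 13.5, 11.96 and 15.5 CPM at E18.5, against 42.0, 76.8, 47.8 and 65.3 CPM at E14.5. The stages lay in opposite orders in the 2 tissues and overlapped in neither. Urethra at E18.5 and bladder at E14.5 overlapped, and bladder at E18.5 lay below every other library.

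In bladder Stat5a fell 4.26-fold at E18.5 relative to E14.5 (log2 fold change -2.09, SE 0.27, adjusted p = 8.16e-05). At E18.5 it was 5.10-fold higher in urethra than in bladder (log2 fold change 2.35, SE 0.23, adjusted p = 1.68e-04). At E14.5 it was 1.77-fold lower in urethra (log2 fold change -0.82, SE 0.23, adjusted p = 0.0186), but it did not pass when bladder replicate 2 was left out (adjusted p = 0.0592) or with the mesenchymal covariate (0.254), and it turned to 0.16 under pan-epithelial scaling (0.85 below the median of all genes there). With the mesenchymal covariate the bladder stage value was -1.19 (adjusted p = 0.114) and the E18.5 tissue value 1.51 (adjusted p = 0.536), in a fit at E18.5 in which 2 genes of the whole table passed. The change between stages in urethra minus that in bladder was 3.15 on the log2 scale, given with no test.

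Stat5b varied less. Urethral libraries held 84.1, 65.6 and 86.1 CPM at E18.5, against 65.1, 67.8, 53.5 and 62.7 CPM at E14.5. Bladder libraries held 53.2, 49.2 and 39.7 CPM at E18.5, against 57.8, 69.4, 58.7 and 67.8 CPM at E14.5. The urethral stages overlapped, as did the tissues at E14.5, and the E18.5 bladder libraries were again the lowest.

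At E18.5 Stat5b was 1.73-fold higher in urethra than in bladder (log2 fold change 0.79, SE 0.15, adjusted p = 0.00370). That call of Stat5b was lost under pan-epithelial scaling (0.35, adjusted p = 0.217) and with the mesenchymal covariate, under which 2 genes of the whole table passed. In bladder it fell 1.34-fold at E18.5 relative to E14.5 (log2 fold change -0.42, SE 0.13, adjusted p = 0.0206), a value that turned to 0.14 under pan-epithelial scaling, 0.39 below the median of all genes there. The bladder call was also lost without E18.5 bladder replicate 3 (adjusted p = 0.0919), without E14.5 bladder replicate 2 (0.0583) or 4 (0.0661), and with the mesenchymal covariate. At E14.5 the tissues did not pass (0.00 on the log2 scale, SE 0.096, adjusted p = 0.979).

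Per gene length, Stat5b was above Stat5a in every library. The ratio of Stat5a to Stat5b in RPKM (CPM divided by the deposited gene length) was 0.681, 0.539 and 0.733 in urethra at E18.5, against 0.357, 0.479, 0.339 and 0.413 at E14.5. In bladder it was 0.197, 0.189 and 0.302 at E18.5, against 0.565, 0.860, 0.632 and 0.748 at E14.5. The groups separated in both tissues, with the ratio higher at the later stage in urethra and lower in bladder. A ratio within a library does not depend on the scaling of that library, and it shows unequal change of the 2 genes, not which of them changed. It was given no test.

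**Figure D3:**
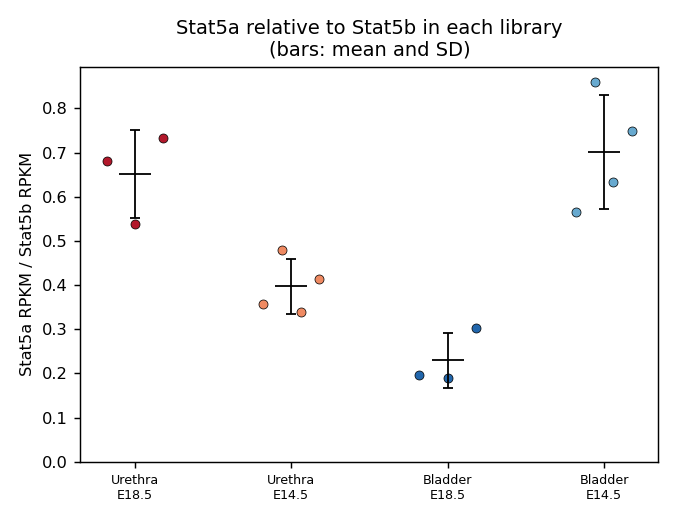
Ratio of Stat5a to Stat5b in RPKM (y axis, from 0) in each library (points), with group mean and SD as bars, for urethra and bladder at E18.5 and E14.5 (x axis). The mean ratio was 0.651 and 0.397 in urethra at E18.5 and E14.5, and 0.229 and 0.701 in bladder at E18.5 and E14.5.

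Stat3, the factor of IL-6 family cytokines, differed mainly in the early urethra. In urethra it stood at 129, 108 and 128 CPM at E18.5, against 85.2, 56.5, 51.2 and 44.9 CPM at E14.5. In bladder it stood at 140, 160 and 144 CPM at E18.5, against 149, 133, 103 and 136 CPM at E14.5. Urethra at E14.5 lay below every other library, and its replicate 1, the highest of the 4, was also the library of that group with most epithelial RNA (3662 CPM of the epithelial list) and least mesenchymal RNA (2102 CPM).

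At E14.5 Stat3 was 2.15-fold lower in urethra than in bladder (log2 fold change -1.10, SE 0.20, adjusted p = 0.00322). The call was lost under pan-epithelial scaling (-0.21, which is 1.22 below the median of all genes there). At E18.5 the tissues did not overlap, at 122 ± 11.6 CPM in urethra and 148 ± 10.8 CPM in bladder, but the difference did not pass (log2 fold change -0.22, adjusted p = 0.152). The bladder stages overlapped and did not pass (log2 fold change 0.18, adjusted p = 0.470). The urethral stage difference of 2.05-fold is given with no test.

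**Figure D4:**
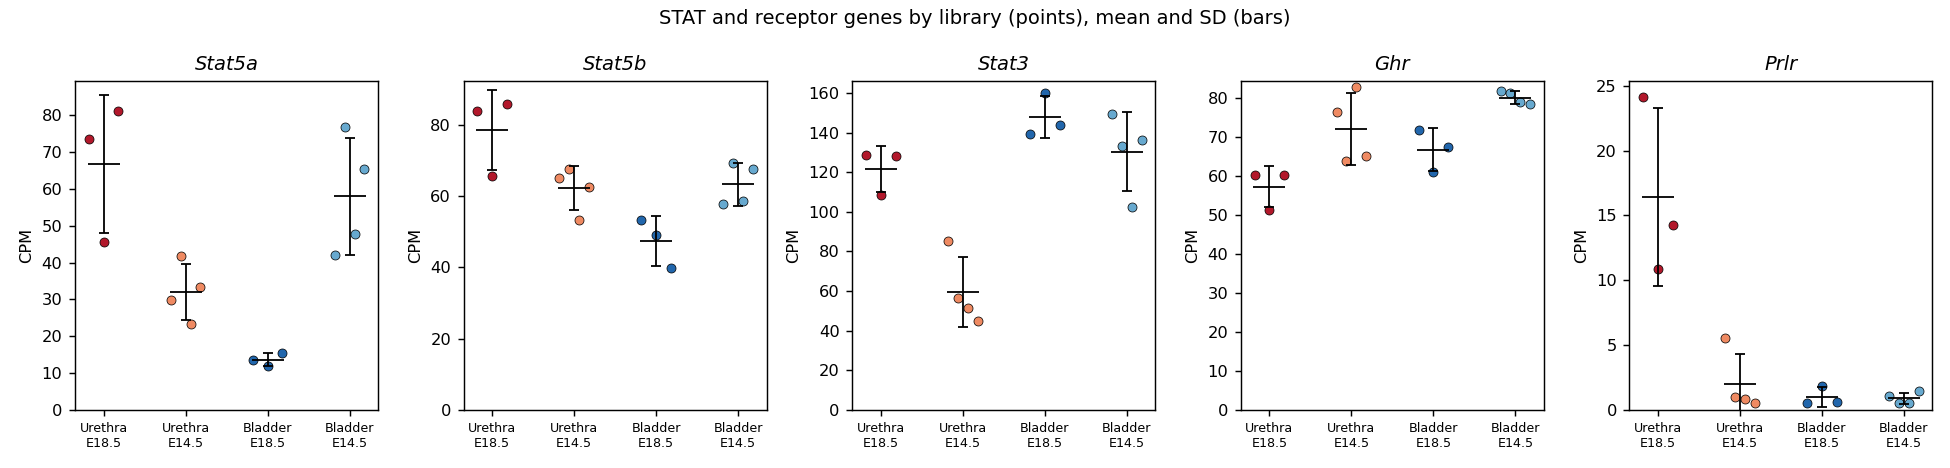
CPM (y axis, from 0) of Stat5a, Stat5b, Stat3, Ghr and Prlr in each library (points), with group mean and SD as bars, for urethra and bladder at E18.5 and E14.5 (x axis). Stat5a is lowest in bladder at E18.5 (11.96 to 15.5 CPM), Stat3 is lowest in urethra at E14.5 (44.9 to 85.2 CPM), and Prlr exceeds 10 CPM only in urethra at E18.5 (10.8 to 24.1 CPM).

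The receptors come last. Ghr (chromosome 15, 3317760 to 3583492, minus strand) encodes the growth hormone receptor. Its urethral level was 60.2, 51.1 and 60.2 CPM at E18.5, against 76.4, 63.7, 82.7 and 65.0 CPM at E14.5. Its bladder level was 71.8, 60.8 and 67.5 CPM at E18.5, against 81.6, 81.1, 78.8 and 78.4 CPM at E14.5. The later libraries lay below the earlier ones in both tissues.

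None of the 3 tested comparisons of Ghr passed. The bladder stage difference was -0.26 on the log2 scale (SE 0.10, adjusted p = 0.0573), and it passed when the bladder libraries were fitted alone (-0.24, adjusted p = 0.0398), but it turned to 0.28 under pan-epithelial scaling (0.25 below the median of all genes). Urethra against bladder gave -0.17 at E18.5 (adjusted p = 0.308) and -0.12 at E14.5 (adjusted p = 0.329). Under pan-epithelial scaling the E14.5 value turned to 0.87 and passed (adjusted p = 0.0111), though it lay 0.15 below the median of all genes there.

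Prlr (chromosome 15, 10177238 to 10349180, plus strand) encodes the prolactin receptor, best known for mammary and ovarian functions. Urethral libraries held 24.1, 10.8 and 14.3 CPM at E18.5, against 5.50, 0.984, 0.803 and 0.552 CPM at E14.5. Bladder libraries held 0.524, 1.87 and 0.591 CPM at E18.5, against 1.02, 0.541, 0.552 and 1.41 CPM at E14.5. The E18.5 urethra lay above every other library, and the other groups overlapped one another. In raw counts this was 369 to 565 per library in urethra at E18.5, 14 to 125 in urethra at E14.5, 11 to 49 in bladder at E18.5 and 12 to 42 in bladder at E14.5.

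At E18.5 Prlr was 16.7-fold higher in urethra than in bladder (log2 fold change 4.06, SE 0.52, adjusted p = 5.64e-04, higher in 3 of 3 libraries). Without E18.5 bladder replicate 2, the highest of its group, the value was 4.90. With the mesenchymal covariate the value was 3.18 and the call was lost (adjusted p = 0.662). In that fit 2 genes of the whole table passed. The mesenchymal sums of the tissues did not overlap at E18.5, so the fit hardly separates tissue from the mesenchymal score. At E14.5 the tissues did not pass (1.16, SE 0.76, adjusted p = 0.236), and the value was -0.15 without urethra replicate 1. In bladder the stages did not pass either (0.19, SE 0.77, adjusted p = 0.870), with -0.69 without E18.5 bladder replicate 2. The urethral stage difference, given with no test, was 8.40-fold, or 3.07 on the log2 scale, and 4.39 on that scale without urethra E14.5 replicate 1. Gene counts do not separate the long and short forms of the receptor.

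Per gene length, Ghr exceeded Prlr in each group. Mean RPKM of Ghr was 6.31 and 7.95 in urethra at E18.5 and E14.5 and 7.37 and 8.83 in bladder at E18.5 and E14.5. Mean RPKM of Prlr was 1.07 and 0.128 in urethra at E18.5 and E14.5 and 0.0648 and 0.0575 in bladder at E18.5 and E14.5. On the same scale Stat3 and Stat5b averaged 12.8 and 14.2 RPKM in urethra at E18.5, and Cish, Socs2, Socs1 and Socs3 averaged 7.73, 3.84, 1.63 and 5.91 RPKM there.

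Counted by comparison, 6 of the 9 genes passed between bladder stages (4 higher, 2 lower), where 40.3% of all genes did. Of the 7 genes tested between tissues at E18.5, 4 passed (Stat5a, Stat5b and Prlr higher in urethra, and Socs1 lower, with the losses of that call given above), where 37.9% of all genes did, and the direction of Stat5b held under pan-epithelial scaling without passing. Of the same 7 at E14.5, 4 passed (Socs1 and Socs3 higher in urethra, Stat3 and Stat5a lower, with Stat5a turning to 0.16 under that scaling), where 44.0% of all genes did. Groups did not overlap for 8 of the 9 genes between urethral stages (38.5% of all genes, a comparison that chose the set), 7 of 9 between bladder stages (46.2%), 6 of the 7 tested between tissues at E18.5 (51.1%) and 3 of the 7 at E14.5 (40.4%). The comparisons share groups of libraries, so a gene's values in them are not independent.

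**Figure D5:**
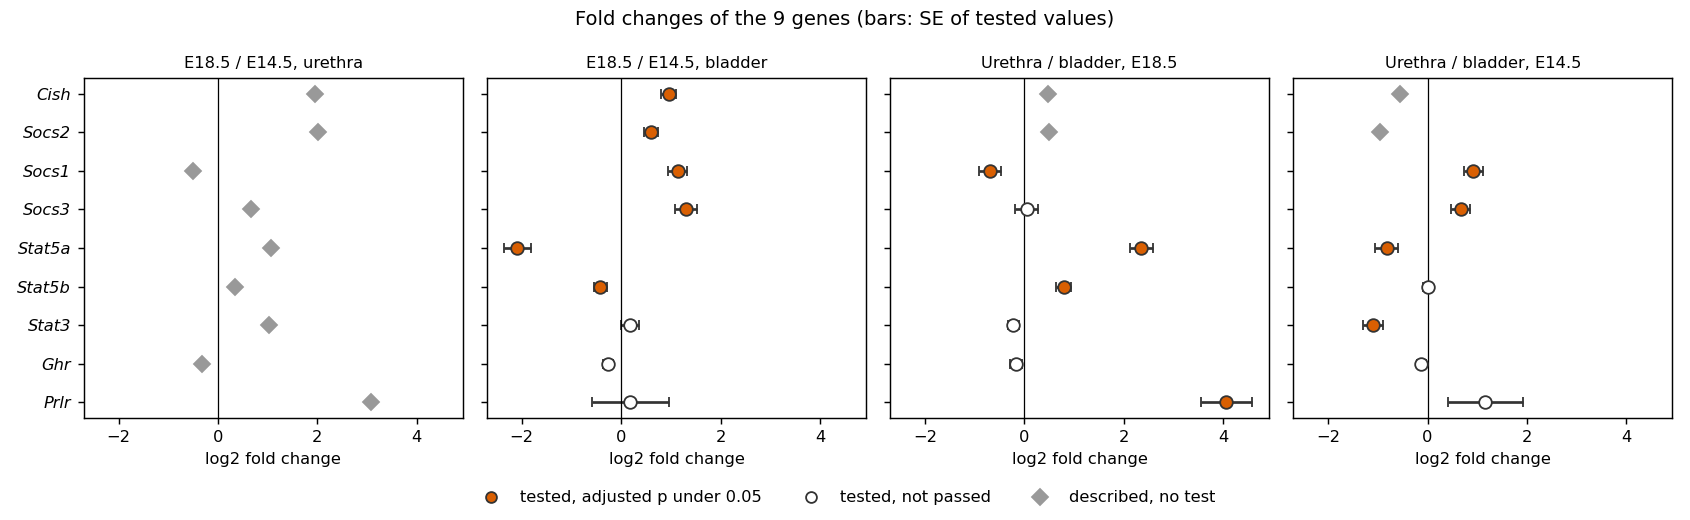
Log2 fold change (x axis) of the 9 genes (y axis) for E18.5 over E14.5 in urethra and in bladder and for urethra over bladder at E18.5 and at E14.5, with filled circles for tested values that passed, open circles for tested values that did not, grey diamonds for values given with no test, and bars for SE. Stat5a stands at -2.09 between bladder stages and 2.35 between tissues at E18.5, and Prlr at 4.06 between tissues at E18.5.

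Genes that respond to tissue handling were read as well. The summed level of 12 immediate early and heat shock genes was 552 to 635 CPM in urethra at E18.5, 261 to 414 in urethra at E14.5, 381 to 420 in bladder at E18.5 and 198 to 271 in bladder at E14.5. This sum was higher at E18.5 than at E14.5 in both tissues, as Cish and Socs2 were, and its part in their levels was not tested. Of the 12 genes, 10 passed as higher between urethral stages, where 17.3% of all genes did, and 4 between bladder stages, where 19.9% did.

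Genes whose pattern was most like that of Cish over the 14 libraries, by Pearson correlation of log2 CPM among 11688 genes, were Tmem134 (r = 0.966), Pigc (0.965), Acp5 (0.957), Atg9b (0.956) and Junb (0.953). For Socs2 they were Nat9 (0.929), Cish (0.918), Ly6a (0.915), Eps8 (0.912) and Atg9b (0.906), while Socs2 ranked 32 in likeness to Cish. Cish averaged 49.6, 12.7, 37.1 and 19.2 CPM in urethra at E18.5 and E14.5 and bladder at E18.5 and E14.5, and Junb, an immediate early gene and one of the 12 handling genes, averaged 130, 34.3, 90.5 and 60.5 CPM in that order. Atg9b, which encodes an autophagy protein, averaged 32.5, 0.704, 11.7 and 2.94 CPM. These correlations describe 14 libraries that fall into 4 groups and share scaling, and they carry no test.

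The rest of the pathway was read from 12 lists of ligands, receptors, kinases, regulators and reported targets, with the 9 genes left out. Of 81 such genes tested, 30 were higher and 18 lower between bladder stages (59.3% called, against 40.3% of all genes), 24 higher and 9 lower between urethral stages (40.7%, against 33.0% of all genes), and 23 higher and 26 lower in urethra against bladder at E18.5 (60.5%, against 37.9%). At E14.5 it was 19 and 18 of 73 (50.7%, against 44.0%). The hormone genes Gh and Prl had 0 counts in all 14 libraries, and 3 counts in the shallowest stood for 0.148 CPM.

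Of 11 other STAT5-linked receptor genes, 9 were higher at E18.5 in bladder and none lower (median log2 fold change 2.04), where 19.9% of all genes were higher and the median of all was -0.0046. In urethra against bladder at E18.5, 8 were lower and 1 higher (median -1.78), where 19.3% of all genes were lower. In the same late bladder libraries 11 of 15 mesenchymal, 10 of 10 smooth muscle, 10 of 10 endothelial and 11 of 12 immune markers passed as higher at E18.5 than at E14.5, and the part of those cells in the receptor levels was not tested beyond the mesenchymal covariate. Lepr, the leptin receptor, stood at 61.9 ± 3.33 CPM (SD, n = 3) in bladder at E18.5 and 0.719 ± 0.782 CPM (n = 4) at E14.5, a 91.6-fold difference (log2 fold change 6.52, adjusted p = 1.06e-05, and 7.48 without E14.5 bladder replicate 3). Csf2rb, the shared beta chain of IL-3 family receptors and a gene of myeloid cells, was 15.7-fold higher at E18.5 in bladder (adjusted p = 2.93e-05). All 7 gp130 family receptors were lower in urethra than in bladder at E18.5 (median -1.15), and 5 of 7 were higher at E18.5 in bladder (median 1.35), Il6st (gp130 itself) 2.23-fold (adjusted p = 2.06e-04) among them. At E14.5, by contrast, 3 of the 7 were higher in urethra and 1 lower (median 0.77), where 20.9% of all genes were higher and 23.1% lower. Of 4 tested ligands of STAT5-linked receptors 3, and of 4 gp130 ligands 1, were higher at E18.5 in bladder, where Lif, a gp130 ligand, was 25.5-fold higher (log2 fold change 4.67, adjusted p = 1.56e-04, and 5.67 without E14.5 bladder replicate 1).

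Il7, the ligand of a STAT5-linked receptor on lymphoid cells, was highest in the late urethra, as Prlr was. It averaged 8.88 ± 1.98 CPM in urethra at E18.5 and 0.753 ± 0.257 CPM in bladder at E18.5 (SD, n = 3 each), a 12.2-fold difference (adjusted p = 1.39e-04), and it was 7.58-fold higher in urethra at E18.5 than at E14.5 (adjusted p = 4.37e-04). Of 4 Janus kinases 3 were lower in urethra at E14.5, where 23.1% of all genes were. This count turned to 2 higher and 0 lower under pan-epithelial scaling. Jak3 was 2.88-fold lower in urethra at E14.5 (adjusted p = 8.58e-04, a call lost under that scaling) and 1.86-fold lower at E18.5 (adjusted p = 0.00184). Of 4 other Socs genes 3 were higher in urethra at E18.5, where 18.6% of all genes were, with 1 higher under that scaling. Socs6 was 2.04-fold higher there (adjusted p = 4.71e-04). The same 3 were also higher in urethra at E14.5 and 1 was lower, with 4 higher and 0 lower under that scaling. Of all genes 20.9% were higher and 23.1% lower at E14.5 before that scaling. Socs6 was 1.34-fold higher in urethra at E14.5 (adjusted p = 0.0121). In bladder 3 of the 4 were lower at E18.5, where 20.4% of all genes were, against 0 under that scaling. Socs6 was 1.32-fold lower in bladder at E18.5 (adjusted p = 0.0131) but at 0.14 on the log2 scale under that scaling. Stat6, the IL-4 and IL-13 factor, was 2.31-fold higher in urethra at E18.5 than at E14.5 (adjusted p = 0.00201).

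Of 9 tested reported STAT5 targets, 2 were higher and 5 lower between bladder stages, 2 higher and 0 lower between urethral stages, and 6 higher and 1 lower in urethra against bladder at E18.5 (medians -0.39, 0.25 and 0.60). In the same order, 19.9% of all genes were higher and 20.4% lower, 17.3% and 15.7%, and 18.6% and 19.3%. Under pan-epithelial scaling the counts of targets were 2 higher and 1 lower, 0 higher and 3 lower, and 4 higher and 2 lower. The urethral stage count thus turned round. In urethra against bladder at E14.5, 4 of 8 tested targets were higher and 2 lower (median 0.23). Of all genes 20.9% were higher and 23.1% lower there. Under pan-epithelial scaling 5 of the 8 were higher and 0 lower. Elf5, a factor of mammary alveolar and keratinised epithelium, stood at 58.0 ± 5.52 CPM in urethra at E18.5, 40.7 ± 24.4 in urethra at E14.5, 8.15 ± 1.22 in bladder at E18.5 and 50.1 ± 6.95 in bladder at E14.5, the order of Stat5a. It fell 6.15-fold between bladder stages (adjusted p = 1.86e-04) and was 7.41-fold higher in urethra than in bladder at E18.5 (adjusted p = 1.21e-05). Bcl6, a repressor that competes for STAT5 sites, was 5.39-fold higher in urethra than in bladder at E18.5 (adjusted p = 3.64e-05). It was also 3.64-fold higher in urethra at E14.5 (adjusted p = 0.00237), and its difference of stage changes did not pass (adjusted p = 0.364). Id1 fell 1.79-fold between bladder stages (adjusted p = 1.90e-04) and rose 1.62-fold between urethral stages (adjusted p = 0.00117), the urethral value turning to -0.10 and the bladder call being lost under pan-epithelial scaling.

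Of 11 reported STAT3 targets, 9 were higher between urethral stages and none lower, where 17.3% of all genes were higher and 15.7% lower. Under pan-epithelial scaling it was 4 higher and 2 lower. The list shares Fos and Junb with the 12 handling genes, of which 10 were higher between urethral stages. Between bladder stages 4 of the 11 targets were higher and 3 lower, with 7 higher and 0 lower under that scaling. Of all genes 19.9% were higher and 20.4% lower between bladder stages, shares that hold for each bladder stage count in this paragraph. Cebpd rose 16.9-fold between bladder stages (adjusted p = 9.27e-07). Reg3g, which encodes an antibacterial lectin, was 40.3-fold higher in urethra than in bladder at E18.5 (26.9 ± 4.06 against 0.703 ± 0.265 CPM, n = 3 each, adjusted p = 1.34e-05). Of 8 insulin-like growth factor genes, 4 were higher and 1 lower between bladder stages, and Igf1, a growth hormone target in liver, was 7.52-fold higher there (adjusted p = 2.47e-04). Of 10 other negative regulators 1, Sh2b3 (2.19-fold, adjusted p = 1.65e-04), was higher between bladder stages and 5 were lower, against 0 lower under that scaling, among them Pias4 (1.53-fold, adjusted p = 1.71e-04 before that scaling). Of 6 genes of the SOCS box ligase 1 was higher and 0 lower between bladder stages, and 1 of 4 other Stat genes was higher and 0 lower. With the mesenchymal covariate, Lepr and Cebpd kept their bladder stage calls and none of the other bladder stage or E18.5 tissue calls named for pathway genes outside the 9 was kept. In those fits 937 genes of the whole table passed between bladder stages and 2 between tissues at E18.5.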

How the data were processed

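Per the labels' protocols, libraries came from poly(A) RNA by a kit that keeps the strand and were read as pairs of 100 bases. Per the submitters' processing notes, HISAT2 2.2.1 and SAMtools 1.9 were used with the genome GRCm38. Which tool counted reads, with which strand option and annotation, is not given in the sources used here. The authors deposited raw counts per gene, one table per stage, with a gene length column used here for RPKM. The 9 genes, the lists and the tests were chosen with earlier results of these data known.

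Counts were filtered with filterByExpr, scaled by the trimmed mean of M values and fitted in edgeR 4.0.16 (R 4.3.3) with its quasi-likelihood test. An adjusted p under 0.05 (Benjamini-Hochberg) is called passing. CPM used effective library sizes, and log2 CPM for likeness used a prior count of 2 over genes averaging at least 5 CPM. Tissue tests used the libraries of a stage, and stage tests and the difference of stage changes used all 14 libraries in 4 groups. The library was taken as the replicate, and p-values measure the spread between libraries. With 3 litters noted for 4 E14.5 libraries of a kind, libraries of that stage may share a litter, which was not tested. Replicates differed beyond counting noise (chi-square per gene 10.3 to 105.9). At E14.5 replicates 2 and 4 were the most alike in both tissues (10.3 in urethra and 12.8 in bladder). All 9 genes were reported in each comparison. Of each list, up to 3 genes with the smallest adjusted p or against its majority could be named, and the choice among them was made after seeing the values. Alternatives were DESeq2 1.42.0 and its size factors, voom of limma 3.58.1, other filters, scaling on 7 pan-epithelial genes (St14, Spint1, Spint2, Esrp1, Esrp2, Cdh1 and Epcam), a mesenchymal score as covariate, a replicate block, other sets of libraries, and leaving out each library. The fit was tested on simulated data.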

Additional observations from a re-analysis of the deposited data

Results flagged for a closer look

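Prlr in urethra at E14.5 replicate 1 stood at 5.50 CPM, against 0.552 to 0.984 CPM in the other 3 libraries of the group, a gap past Dixon's limit for 4 samples. Of 18 gene and group combinations examined, 1 passed that limit, and chance flags about 1 in 20. The same library had the highest epithelial sum (3662 CPM) and the lowest mesenchymal sum (2102 CPM) of its group, and the part of either in its Prlr level was not tested.

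For 4 of the 9 genes the order of the tissues at one stage was opposite to that at the other with no overlap, as it was for 2.98% of all 18286 genes, a share against which nothing is read, since the set was chosen with the urethral values of Cish and Socs2 known. The stage change in urethra minus that in bladder was 1.01 for Cish, -1.64 for Socs1, 1.42 for Socs2 and 3.15 for Stat5a on the log2 scale, and this difference was not tested, since the choice of genes used the urethral stages. Under pan-epithelial scaling, which moved the median of all genes to -1.36, Cish stood at -0.30 and Socs2 at -0.021, or 1.06 and 1.34 above that median.

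Among pathway genes outside the set, the same difference passed the interaction test for Stat6 (1.24, adjusted p = 0.0177, lost without urethra E18.5 replicate 1 at 0.0531), Il7 (3.69, adjusted p = 0.00202), Lepr (-5.97, adjusted p = 6.62e-04, and -6.93 without bladder E14.5 replicate 3), Elf5 (3.13, adjusted p = 0.00167), Id1 (1.54, adjusted p = 2.42e-04) and Reg3g (6.08, adjusted p = 3.54e-04), by edgeR's quasi-likelihood test. These 6 are a part of those that passed. Of 81 pathway genes tested, 15 passed as higher and 19 as lower (42.0%). Cebpd, Csf2rb, Sh2b3, Il6st and Igf1, named above, were among the lower. Of all 18286 genes 22.9% passed the interaction test, 10.7% as higher and 12.2% as lower. Under pan-epithelial scaling the call of Id1 was lost (0.20, adjusted p = 0.463) and Stat6 turned to -0.00023. With the mesenchymal score as a covariate none of Stat6, Il7, Lepr, Elf5, Id1 and Reg3g passed, in a fit where 81 genes of the whole table did.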

How the results depend on the processing

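Of 357 settings of the 23 tested values of the 9 genes, 304 kept direction and side of the threshold, 29 lost a call, 6 gained one and 18 turned sign. Scaling on pan-epithelial genes moved the counts over all genes to 11932 at E14.5 (11415 higher in urethra, 517 lower), 10823 between urethral stages (983 and 9840) and 13154 for the difference of stage changes (273 and 12881). At E18.5 that scaling gave 1317 higher and 5780 lower (median -0.39) and between bladder stages 5742 and 302 (median 0.53). Under it these values turned sign: at E14.5 Cish to 0.36, Socs2 to 0.086, Stat5a to 0.16 and Ghr to 0.87, at E18.5 Socs3 to -0.38, between bladder stages Stat5b to 0.14, Ghr to 0.28 and Socs6 to 0.14, between urethral stages Socs3 to -0.22, Stat5b to -0.49 and Id1 to -0.10, and for the difference of stage changes Cish to -0.30, Socs2 to -0.021, Stat3 to -0.44, Stat5b to -0.62 and Stat6 to -0.00023. Stat5b and Prlr at E14.5, Stat3 and Ghr at E18.5 and Stat3 between bladder stages passed under that scaling alone. With the mesenchymal covariate the counts over all genes were 3596 at E14.5, 2 at E18.5, 937 between bladder stages and 81 for the difference, Socs1 at E18.5 turned to 0.093 and the difference for Socs3 to 0.29. With no filter Stat5b at E14.5 was -0.0046, and with all 14 libraries in 1 fit it was -0.027 and Socs3 at E18.5 -0.0100. The cause of these changes was not tested. Leaving out each library gave 5593 to 8394 genes at E14.5, 4751 to 6628 at E18.5, 5952 to 7417 between bladder stages, 4062 to 7260 between urethral stages and 2654 (without urethra E18.5 replicate 1) to 5697 for the difference. It moved Stat5b at E14.5 over -0.040 to 0.065, Prlr at E14.5 over -0.15 to 1.47, Socs3 at E18.5 over -0.20 to 0.21, Prlr between bladder stages over -0.69 to 0.52 and the difference for Ghr over -0.14 to 0.012. The replicate numbers were not taken to pair the libraries in the main tests. Deviations of same-numbered libraries correlated over 0.1 in 3 of 4 pairs at E14.5 and 1 of 3 at E18.5. The correlations were 0.150, 0.131, 0.391 and -0.104 at E14.5, and 0.138, -0.146 and -0.189 at E18.5. Pairs of unlike number ran from -0.392 to 0.262 at E14.5 and from -0.268 to 0.359 at E18.5. At E14.5 these values do not settle whether the libraries were paired. The replicate block gave 7680 genes at E14.5 and 5363 at E18.5, where Socs1 did not pass (adjusted p = 0.0817), and it changed no other call of the 9 genes. Counts of 11 to 49 limit Prlr in bladder at E18.5.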
